A study of Caenorhabditis elegans with 12 samples.

Results

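Worms of the nematode Caenorhabditis elegans that carried a daf-2 mutation were compared with the wild-type strain N2 at day 10 by RNA sequencing of whole bodies. Each genotype had 3 libraries, described as biological replicates, so the comparison rests on 6 of the 12 libraries of the study. Both groups carried intact spr-3 and spr-4, were in the N2 strain background and were kept at 20 °C, and RNA came from 100 worms of each strain. The other 6 libraries were a spr-4;spr-3 double mutant and a spr-4;spr-3;daf-2 triple mutant of the same day, 3 each, which served to estimate the spread and to give the same daf-2 contrast in a second background. The daf-2 allele and any agent used to stop reproduction were not given in the sources used here, and the protocol text speaks of transgenic lines without naming a transgene. All genes that passed a filter on low counts were described, 18342 of the 46739 genes in the count table.

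DAF-2 is the worm's receptor for insulin-like peptides. When it is active, a chain of kinases (AGE-1, PDK-1, AKT-1, AKT-2 and SGK-1) phosphorylates the transcription factor DAF-16, a FOXO protein, and keeps it out of the nucleus. When DAF-2 signalling is low, DAF-16 enters nuclei, and daf-2 mutants are known for long life, stress resistance, fat storage and, in larvae, arrest as dauers. The intestine, which digests bacteria, stores fat and makes yolk, is a main site of this pathway.

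Total counts were 29990149, 33370418 and 34778946 in N2 replicates 1 to 3 and 28290959, 11892808 and 46493665 in daf-2 replicates 1 to 3, so daf-2 replicate 2 was the shallowest library. Coordinates are those of the build WBcel235. Levels are given as counts per 1000000 after TMM scaling (CPM), and each log2 fold change is daf-2 over N2 from edgeR's quasi-likelihood test with its SE and an adjusted p over all tested genes, called below 0.05. Shares of counts are of each library's total counts without that scaling, whose factors were 0.846 to 0.914 in N2 and 0.99 to 1.05 in daf-2. Such shares therefore lie higher in daf-2, relative to N2, than CPM do. The first principal component of the 6 libraries held 51.1% of the variance and separated the genotypes. The second held 16% and set daf-2 replicate 2 (-63.9) apart from daf-2 replicates 1 and 3 (42.4 and 31). N2 replicate 2 (-35.6) lay on the same side, apart from N2 replicates 1 and 3 (14.8 and 11.3). The names of the daf-2 libraries and of N2 replicate 1 end in 2 and those of N2 replicates 2 and 3 end in 1, a difference whose meaning was not given. With that digit as a term in the model 1250 genes were higher and 1460 lower, and 2572 (68.2%) of the calls were kept. The term itself was called for 0 of 18342 genes. Because the digit goes in part with genotype, an effect of the digit and a loss of power cannot be told apart for the lost calls. Because whole worms were sequenced, fewer cells of a type and less RNA per cell cannot be told apart. The cDNA kit does not mark strand, and 29.7% of the tested genes share exon bases with another gene, whose reads cannot be separated by strand. Among the genes called and named here these are C52D10.3, ND6, asp-4, asp-9, clec-87, clx-1, col-183, cpr-4, cyp-34A9, cyp-35B1, daf-16, dpy-8, dur-1, ech-1.1, egg-1, elo-5, epg-2, epi-1, fbn-1, gba-4, gpd-2, gst-4, hsp-12.6, hsp-17, ife-1, ife-3, inx-14, inx-7, lea-1, let-2, lipl-4, lys-8, mcm-7, msa-1, nspc-15, pdi-2, perm-2, pho-1, sek-1, shc-1, skr-13, skr-5, smf-2, sod-1, sod-3, spn-4, tir-1, tni-4, tps-2, tre-4, ule-2, unc-79 and unc-87. Counts within families of near-identical genes (vit, nspc, hsp-16, msp, skr, gpd-2 with gpd-3, cyb-2.1 with cyb-2.2) are uncertain for single members.

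Of the 18342 genes, 3772 (20.6%) were called, 1757 (9.58%) higher and 2015 (11%) lower in daf-2. These shares are the background against which the counts of gene groups below are to be read. At least a 2-fold change was seen in 887 of the higher and 925 of the lower genes, at least 4-fold in 324 and 334, and at least 8-fold in 160 and 157. The median log2 fold change was 1.01 among the genes called higher, -0.928 among those called lower and 0.0604 over all tested genes. The libraries of the groups did not overlap for 97.3% of the genes called higher and 99.3% of those called lower, against 39.9% of all tested genes. When each of the 6 libraries was left out in turn, 2070 (54.9%) of the 3772 calls were kept every time. Genes named below as having risen or fallen are among these unless a loss is stated beside them. For gene groups, counts with a library left out are mostly given only where the shift was large, so counts without them can vary too.

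**Figure D1:**
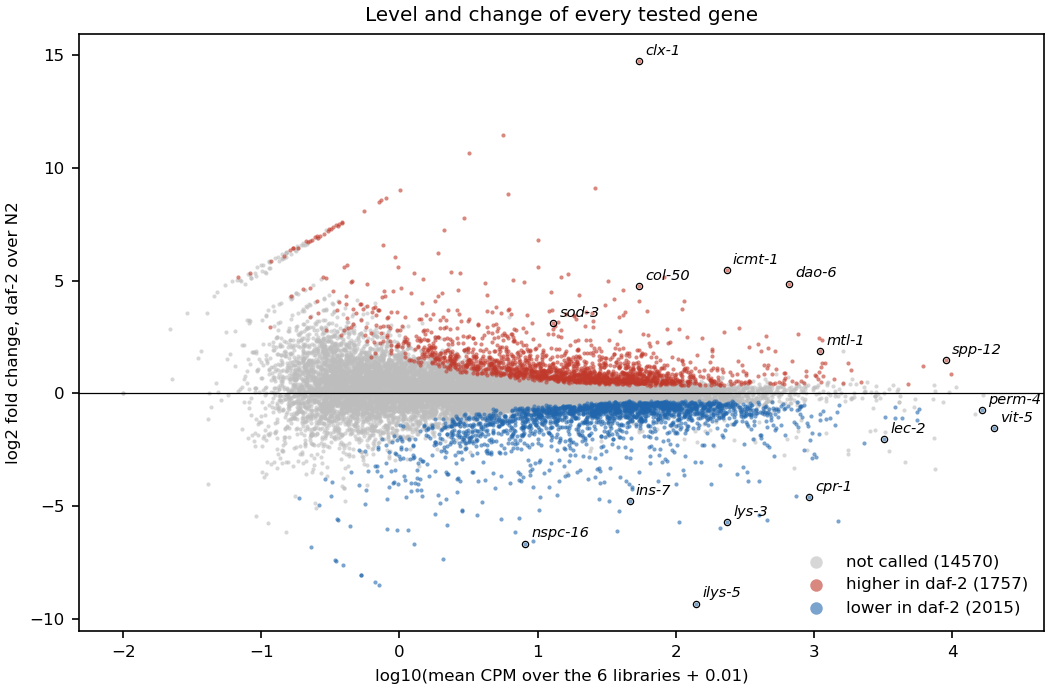
Log2 fold change of daf-2 over N2 (vertical axis) against mean level over the 6 libraries in CPM (horizontal axis, log scale), 1 point a gene, with called genes coloured by direction. Called genes lie on both sides of 0 at every level, and among the most abundant genes more are lower (843) than higher (459).

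The largest gains in CPM were those of spp-12, cpi-1, col-183, dod-6, msa-1 and B0238.12. spp-12 (WBGene00004997, chromosome V, 13889816 to 13890327, plus strand) encodes a saposin-like protein, of a family that includes pore-forming antimicrobial peptides. It measured 4782, 3293.6 and 6228 CPM in N2 and 14717, 9857 and 15436 CPM in daf-2. All daf-2 libraries lay above all N2 libraries (log2 fold change 1.48 ± 0.25, adjusted p = 0.000388). The cuticle collagen col-183 (WBGene00000756, chromosome X, 13466643 to 13467764, minus strand) measured 3194, 3081 and 4937 CPM in N2 and 8722, 8506 and 8395 CPM in daf-2, again without overlap (1.19 ± 0.23, adjusted p = 0.00154). cpi-1, a cystatin, which inhibits cysteine proteases, had a log2 fold change of 0.86 ± 0.29, adjusted p = 0.0458, but its call was lost without N2 replicate 1, 2 or 3 and without daf-2 replicate 1 or 3. dod-6, a gene named for lying downstream of DAF-16, rose 5.17-fold, from 535, 268 and 304 CPM to 1754, 1862 and 2111 CPM.

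The largest losses in CPM were those of vit-5, perm-4, clec-87, lec-2, icl-1 and perm-2, which encode a yolk protein, an eggshell protein, a C-type lectin-like protein, a galectin, the bifunctional glyoxylate cycle enzyme and a second eggshell protein. lec-2 (WBGene00002265, chromosome II, 10009608 to 10016183, minus strand) measured 4218, 5495 and 5877 CPM in N2 and 1000.05, 1738 and 1121 CPM in daf-2. The daf-2 libraries were all lower (-2.01 ± 0.28, adjusted p = 8.54e-05). perm-4 (WBGene00016638, chromosome IV, 1121494 to 1125107, minus strand) went from 21917, 19868 and 20308 CPM to 14097, 12258 and 11008 CPM, a smaller relative change (-0.73 ± 0.17, adjusted p = 0.00654) without overlap. clec-87 (WBGene00007709, chromosome I, 10184462 to 10185520, minus strand) measured 8432, 7193 and 7386 CPM in N2 and 4175, 3155 and 2912 CPM in daf-2 (-1.17 ± 0.19, adjusted p = 0.000308), and its groups were also apart.

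By fold change the largest rises among genes with a class symbol were clx-1, clec-18, alh-2, icmt-1, dao-6, col-50, dlhd-1, sams-5, grd-3 and asp-9. Only called genes with a mean of at least 5 CPM and no overlap of the groups were ranked by fold change. The separation of the groups in genes so named was therefore set by the choice. clx-1 (WBGene00000551, chromosome IV, 7734648 to 7736324, plus strand) had 0 counts in every N2 library and 132, 83.8 and 109 CPM in daf-2, at least 3121-fold higher when N2 is set to 3 counts over the group. clec-18, a C-type lectin gene, was likewise at 0 in N2 and at 4.89, 13.9 and 14.9 CPM in daf-2, at least 324-fold higher. Also at 0 counts in N2 and called were C06H5.11, scl-11 and F36D1.10, at least 184-fold, 57.9-fold and 45.7-fold higher. icmt-1 (WBGene00017673, chromosome I, 4901918 to 4903264, plus strand), which encodes an enzyme that methylates prenylated proteins, measured 9.23, 7.08 and 14.4 CPM in N2 and 498, 425 and 445 CPM in daf-2 (5.48 ± 0.24, adjusted p = 5.61e-10). Its lowest daf-2 library lay far above its highest N2 library. sams-5 (WBGene00006416, chromosome IV, 6277433 to 6279522, minus strand), an S-adenosylmethionine synthetase gene, went from 3.08, 3.97 and 4.49 to 63.3, 53.5 and 56.4 CPM (3.91 ± 0.40, adjusted p = 1.24e-05). Among genes with only a sequence name, E02H4.8, Y51A2A.4 and C08F11.17 rose most, with log2 fold changes of 9.09 ± 0.90, 8.83 ± 0.73 and 6.82 ± 0.46.

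The largest falls were those of ilys-5, nspc-16, clec-31, clec-10, lys-3, nhx-6, nspc-18, lipl-5, gba-4 and ins-7, again ranked only among genes without overlap of the groups. ilys-5 (WBGene00017691, chromosome X, 6533490 to 6536840, minus strand), an invertebrate-type lysozyme gene, measured 395, 223 and 223 CPM in N2 and 0.357, 0.644 and 0.409 CPM in daf-2. Every daf-2 library was near 0 and every N2 library was high (-9.33 ± 1.24, adjusted p = 0.00101). nhx-6 (WBGene00003734, chromosome II, 1670829 to 1674401, plus strand), a sodium/proton exchanger gene, measured 12.5, 9.47 and 9.86 CPM in N2 and 0.286, 0 and 0.266 CPM in daf-2 (-5.56 ± 0.74, adjusted p = 6e-05). gba-4, a glucocerebrosidase gene, had 30.4, 25.9 and 3.91 CPM in N2, where replicate 3 was low, and 0.464, 0.483 and 0.634 CPM in daf-2 (-5.19 ± 0.93, adjusted p = 0.00253). Y46H3A.5, K10D11.5 and ZK896.4 fell most among genes with only a sequence name, with log2 fold changes of -6.12 ± 0.29, -5.98 ± 0.40 and -5.7 ± 0.42. clec-24 had 0 counts in every daf-2 library and was at least 39.2-fold lower.

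Within the insulin/IGF-1 pathway, 6 of 20 genes were higher and 3 lower (median 0.19). The count of higher genes was 3 without daf-2 replicate 2. daf-2 itself (WBGene00000898, chromosome III, 2994514 to 3040846, minus strand) measured 35, 38.7 and 36.9 CPM in N2 and 62.7, 68.1 and 72.6 CPM in daf-2, higher in all daf-2 libraries (0.88 ± 0.14, adjusted p = 0.000229). The allele is not given, so this level does not check the genotype. Below the receptor, ist-1, an insulin receptor substrate gene, measured 5.48, 5.44 and 8.2 CPM in N2 and 16.46, 15 and 11.6 CPM in daf-2 and rose (1.17 ± 0.26, adjusted p = 0.00388). akt-2, a kinase gene, rose to 1.9 times its N2 level (0.92 ± 0.13, adjusted p = 0.000102). sgk-1 (WBGene00004789, chromosome X, 16254842 to 16262122, minus strand), whose kinase also acts on DAF-16, went the other way, at 32.2, 29.9 and 25.5 CPM in N2 and 7.43, 10.6 and 11.6 CPM in daf-2 (-1.56 ± 0.22, adjusted p = 9.3e-05), and shc-1, an adaptor gene, fell as well (-0.77 ± 0.17, adjusted p = 0.00398). The phosphatase gene daf-18 (log2 fold change -0.07 ± 0.18) and the kinase gene pdk-1 (-0.01 ± 0.16) were not called. daf-16 measured 71.8, 75.5 and 87.7 CPM in N2 and 101, 127 and 103.5 CPM in daf-2 (0.50 ± 0.13, adjusted p = 0.01), a call lost without N2 replicate 1 or daf-2 replicate 2.

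Insulin-like peptide genes moved in both directions, 7 higher and 9 lower of 35 tested. With 1 library left out the higher count was 5 to 7 and the lower count 6 to 9. ins-7 (WBGene00002090, chromosome IV, 9682011 to 9682845, minus strand), which encodes an agonist of the receptor, measured 109, 63.4 and 95.9 CPM in N2 and 2.86, 3.06 and 3.7 CPM in daf-2 (-4.78 ± 0.42, adjusted p = 6.32e-06). ins-11 (WBGene00002094, chromosome II, 5556731 to 5557173, plus strand) measured 41, 33.9 and 75.8 CPM in N2 and 5.14, 3.3 and 6.4 CPM in daf-2 and also fell without overlap (-3.3 ± 0.30, adjusted p = 1.05e-06). ins-3, ins-4, ins-5 and ins-8 fell, with log2 fold changes of -1.81 ± 0.27, -1.87 ± 0.30, -2.08 ± 0.31 and -5.82 ± 1.08. In contrast, ins-16 (WBGene00002099, chromosome III, 2060623 to 2060957, minus strand) measured 2.85, 1.44 and 3.6 CPM in N2 and 11.6, 9.82 and 16.25 CPM in daf-2 and rose (2.26 ± 0.33, adjusted p = 0.000109), as did ins-23 (2.01 ± 0.22, adjusted p = 7.88e-06), ins-35 (2.39 ± 0.52), ins-30 (1.27 ± 0.26) and ins-29 (1.1 ± 0.28). daf-28, which encodes another agonist, had 0.488, 0.197 and 0.714 CPM in N2 and 0.607, 0.886 and 1.74 CPM in daf-2 and was not called (1.23 ± 0.65, adjusted p = 0.207).

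The other dauer pathways, TGF-beta and steroid hormone, had 0 calls by edgeR among 14 genes, with 0 at an unadjusted p under 0.05, 0 by DESeq2 and 0 by limma-voom for higher levels and 3 at an unadjusted p under 0.05, 2 by DESeq2 and 3 by limma-voom for lower levels. The count of lower genes was 1 without N2 replicate 1, 1 without N2 replicate 2, 2 without daf-2 replicate 2 and 1 without daf-2 replicate 3. Among 20 longevity transcription factors, 2 were higher and 2 lower. hif-1, the hypoxia factor, rose (0.56 ± 0.12, adjusted p = 0.00272) and pqm-1, a zinc finger factor that acts opposite DAF-16, fell (-0.74 ± 0.17, adjusted p = 0.00497), as did mxl-1 (-0.68 ± 0.17, adjusted p = 0.00769). The count of higher factors was 1 without N2 replicate 1, 1 without N2 replicate 3, 1 without daf-2 replicate 1 and 1 without daf-2 replicate 3. skn-1 (0.31 ± 0.14), hlh-30 (-0.10 ± 0.15), pha-4 (-0.29 ± 0.21) and nhr-49 (0.19 ± 0.13) were not called.

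**Figure D2:**
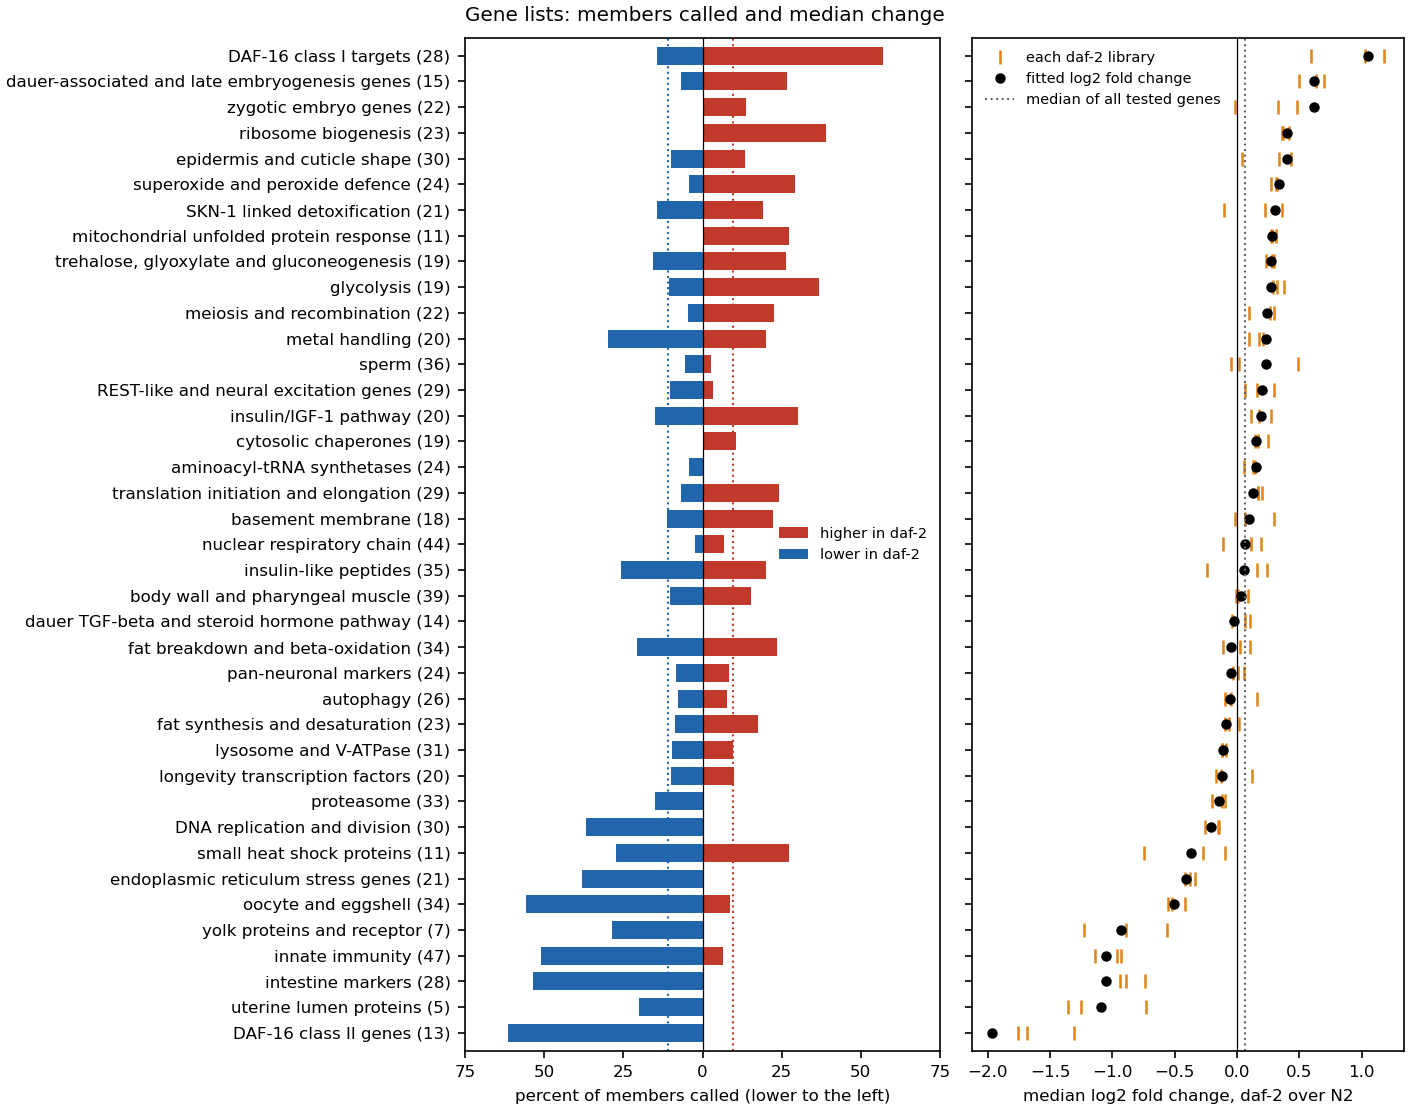
Left, share of tested genes called higher (to the right) and lower (to the left) in daf-2 for each list of genes (horizontal axis, percent), with dotted lines at the shares over all tested genes, 9.58% and 11%, and the number tested in brackets; right, median log2 fold change of each list, as fitted (black points) and for each daf-2 library (orange marks), with a dotted line at the median of all tested genes, 0.0604. DAF-16 class I targets are mostly higher, and class II, intestine, oocyte and immunity genes have the larger shares of lower genes.

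Genes known as DAF-16 class I targets, which rise in daf-2 mutants of other studies, were higher in 16 and lower in 4 of 28 (median 1.05, against 0.0604 over all genes). Class II genes, which fall in those studies, were lower in 8 of 13 (median -1.97) and 0 were higher (0 at an unadjusted p under 0.05, 0 by DESeq2 and 0 by limma-voom). These lists come from studies of the same kind of mutant. Among class I, gst-10 (WBGene00001758, chromosome V, 2561690 to 2564645, plus strand), a glutathione S-transferase gene, measured 5.03, 3.15 and 4.11 CPM in N2 and 28.7, 18.4 and 24.9 CPM in daf-2 (2.56 ± 0.28, adjusted p = 6.23e-06). sod-5, a cytosolic superoxide dismutase gene, measured 5.63, 5.05 and 8.16 CPM in N2 and 43.6, 24.2 and 25.1 CPM in daf-2 (2.3 ± 0.24, adjusted p = 4.16e-06). Both had daf-2 libraries all above N2, and cyp-35B1 (1.51 ± 0.17), cyp-34A9 (2.18 ± 0.18) and lea-1 (1.24 ± 0.16), which encodes a protein linked to desiccation tolerance, rose too. The members that fell were hsp-16.1, hsp-16.41, icl-1 and lys-8. The call of hsp-16.41 was lost without N2 replicate 3 and without daf-2 replicate 1 or 2. Class II members that fell include lys-4 (-3.9 ± 0.54), dod-23 (-1.98 ± 0.24), pho-1 (-2.14 ± 0.50) and nuc-1 (-1.44 ± 0.22), a lysosomal DNase.

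Of 24 genes of defence against superoxide and peroxide, 7 were higher and 1 lower, the lower count being 0 without N2 replicate 1, 0 without N2 replicate 2, 0 without daf-2 replicate 1 and 0 without daf-2 replicate 3. sod-3, the inducible mitochondrial dismutase, measured 1.91, 2.46 and 3.74 CPM in N2 and 28, 21.7 and 20.2 CPM in daf-2 (3.1 ± 0.29, adjusted p = 1.44e-06), and sod-1, the main cytosolic form, rose by less (0.62 ± 0.13, adjusted p = 0.00328). The glutathione peroxidase genes gpx-2 (1.17 ± 0.22, adjusted p = 0.00102) and gpx-6 (0.84 ± 0.17, adjusted p = 0.00217) rose. The constitutive mitochondrial dismutase gene sod-2 (0.26 ± 0.13), catalase ctl-2 (0.35 ± 0.13) and peroxiredoxin prdx-2 (-0.02 ± 0.13) were not called.

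Heat shock genes did not move as a block. Of 11 small heat shock genes, 3 were higher and 3 lower. hsp-12.3 and hsp-12.6 are neighbours on chromosome IV and rose by 2.21 ± 0.19 and 2.38 ± 0.24. hsp-17 (WBGene00002021, chromosome V, 8384799 to 8385929, minus strand) measured 41.2, 41 and 67.8 CPM in N2 and 16.8, 12 and 18.1 CPM in daf-2 and fell (-1.67 ± 0.21, adjusted p = 2.6e-05), and hsp-16.1 fell (-1.74 ± 0.29, adjusted p = 0.000446). The symbol hsp-16.1 stands for a pair of near-identical loci, and this value is that of WBGene00002017, the one counted in the lists. Of 19 cytosolic chaperone genes and their factor, 2 were called higher, with 0 without N2 replicate 1, 1 without N2 replicate 2, 0 without N2 replicate 3, 0 without daf-2 replicate 1, 1 without daf-2 replicate 2 and 0 without daf-2 replicate 3, and 0 lower (1 at an unadjusted p under 0.05, 0 by DESeq2 and 0 by limma-voom, with 1 without N2 replicate 1). hsp-1 (0.21 ± 0.15) and hsp-90 (-0.21 ± 0.15) were not called.

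Genes of protein folding in the endoplasmic reticulum were lower in 8 of 21 (median -0.41), 5 without daf-2 replicate 3, and 0 were higher (0 at an unadjusted p under 0.05, 0 by DESeq2 and 0 by limma-voom). Their summed level was 16100 to 18500 CPM in N2 and 10100 to 11600 CPM in daf-2. hsp-4 (WBGene00002008, chromosome II, 7350112 to 7352645, minus strand), a BiP chaperone gene induced by endoplasmic reticulum stress, measured 389, 557 and 641 CPM in N2 and 181, 185 and 161 CPM in daf-2. Every daf-2 library was lower (-1.59 ± 0.20, adjusted p = 3.04e-05). ckb-2 (WBGene00000512, chromosome III, 4367949 to 4370160, plus strand), a choline kinase gene used as a reporter of the same stress, measured 293, 274 and 364 CPM in N2 and 57.5, 62.6 and 68.7 CPM in daf-2 (-2.3 ± 0.17, adjusted p = 8.49e-08). pdi-2 (WBGene00003963, chromosome X, 4524155 to 4526536, plus strand), a protein disulfide isomerase gene needed for collagen maturation, measured 4337, 4071 and 4709.6 CPM in N2 and 2273, 2316 and 1832 CPM in daf-2 (-1.03 ± 0.18, adjusted p = 0.000527). The other BiP gene hsp-3 (-0.79 ± 0.15, adjusted p = 0.00153) and pdi-6 (-0.85 ± 0.15, adjusted p = 0.000884) fell too. The sensors ire-1 (0.01 ± 0.19), pek-1 (-0.49 ± 0.20) and atf-6 (-0.42 ± 0.18) and the factor xbp-1 (-0.22 ± 0.15) were not called, although pek-1 was called lower without N2 replicate 1.

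The mitochondrial chaperone gene hsp-60 (WBGene00002025, chromosome III, 1619742 to 1625803, plus strand) measured 34.4, 39.1 and 34 CPM in N2 and 77, 77.4 and 73.4 CPM in daf-2 and rose (1.08 ± 0.14, adjusted p = 4.64e-05). It was 1 of 3 higher genes among 11 of the mitochondrial unfolded protein response, a count that was 1 without N2 replicate 1, 1 without N2 replicate 3 and 1 without daf-2 replicate 1, and 0 were lower (0 at an unadjusted p under 0.05, 0 by DESeq2 and 0 by limma-voom). The factor of that response, atfs-1 (0.16 ± 0.16), was not called.

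**Figure D3:**
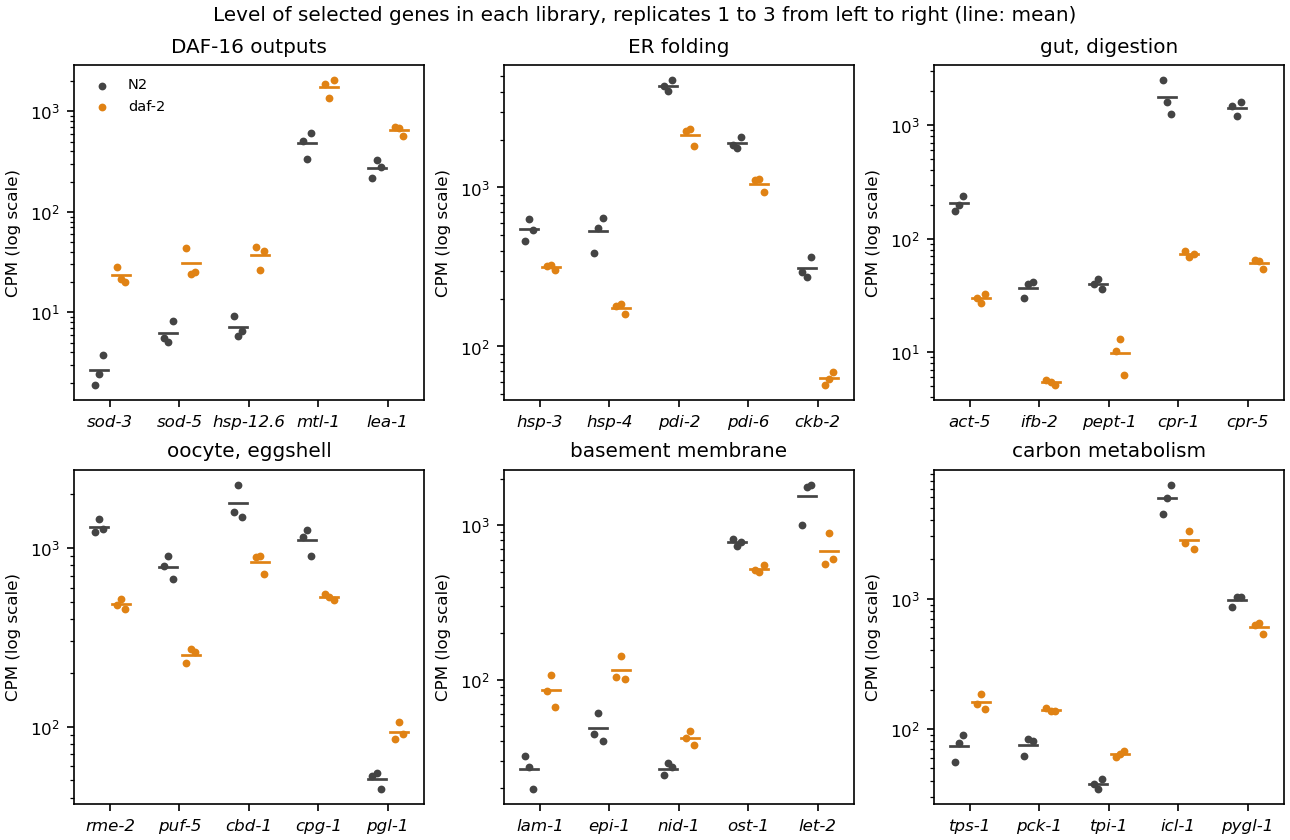
Level in CPM (vertical axis, log scale) of selected genes (horizontal axis) by group of genes, with N2 libraries in dark grey, daf-2 libraries in orange, 1 point a library and a line at the mean of 3. The groups do not overlap for any gene shown, and the call of let-2, a type IV collagen gene, was lost without N2 replicate 2 or 3 or daf-2 replicate 1 or 3.

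Detoxification families held calls in both directions. Cytochrome P450 genes (cyp) were higher in 21 and lower in 5 of 72 (36.1% called), with the lower count 3 without daf-2 replicate 1. UDP-glucuronosyltransferase genes (ugt), whose products attach sugars to foreign compounds, were higher in 18 and lower in 7 of 65 (38.5%), with the lower count 4 without daf-2 replicate 3. cyp-13A11 (WBGene00008809, chromosome III, 13021006 to 13024045, plus strand) measured 0.188, 0.59 and 0 CPM in N2 and 7.53, 8.29 and 8.1 CPM in daf-2. It was near 0 in N2 and higher in every daf-2 library (4.9 ± 0.60, adjusted p = 2.44e-05). cyp-33B1 (4.46 ± 0.78) and cyp-33C1 (4.1 ± 0.70) rose from similarly low levels. ugt-1 (WBGene00007072, chromosome V, 10395663 to 10397820, plus strand) measured 112.1, 124 and 150.8 CPM in N2 and 518, 566 and 549 CPM in daf-2 (2.08 ± 0.17, adjusted p = 3.19e-07), with the groups well apart. ugt-5 (1.7 ± 0.14, adjusted p = 3.19e-07) rose and ugt-18 fell, from 171, 125 and 155 CPM to 32, 34.5 and 28.3 CPM (-2.25 ± 0.30, adjusted p = 0.000131). Glutathione S-transferase genes (gst) were 7 higher and 7 lower of 43, the lower count being 4 without N2 replicate 1 and 4 without daf-2 replicate 3. gst-3 (2.62 ± 0.22), gst-4 (1.44 ± 0.16) and gst-10 rose, and gst-38 (-1.84 ± 0.22) and gst-7 (-1.18 ± 0.15) fell. Carboxylesterase genes (cest) were 8 higher and 4 lower of 31, and the lower count was 2 without N2 replicate 3 and 2 without daf-2 replicate 3. cest-1.1 measured 25.9, 18.5 and 23.6 CPM in N2 and 86.4, 96.9 and 75.7 CPM in daf-2 (1.93 ± 0.19, adjusted p = 2.26e-06).

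Metal handling genes were 4 higher and 6 lower of 20. smf-2 (WBGene00004877, chromosome X, 6716195 to 6718695, minus strand), a divalent metal transporter gene, measured 0, 0.164 and 0 CPM in N2 and 2.68, 2.98 and 1.78 CPM in daf-2 (5.34 ± 1.12, adjusted p = 0.00269). The ferritin genes diverged, with ftn-1 higher (1.19 ± 0.19, adjusted p = 0.000232) and ftn-2 lower (-0.91 ± 0.22, adjusted p = 0.00787). The metallothionein genes diverged in the same manner, mtl-1 at 1.86 ± 0.22 and mtl-2 at -2.53 ± 0.31. Among cadmium-responsive genes, cdr-2 rose (1.97 ± 0.27) and cdr-1 (-1.75 ± 0.34) and cdr-4 (-1.12 ± 0.12) fell.

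In sugar metabolism, the trehalose-making genes rose. tps-1 (WBGene00006602, chromosome X, 17467121 to 17474534, minus strand), a trehalose 6-phosphate synthase gene, measured 55.6, 77.8 and 89.7 CPM in N2 and 156, 184 and 143 CPM in daf-2 (1.11 ± 0.20, adjusted p = 0.000745). All daf-2 libraries were above N2, and the second synthase tps-2 (1.19 ± 0.21, adjusted p = 0.00073) and the trehalose phosphatase gob-1 (0.60 ± 0.13, adjusted p = 0.00297) rose too. Of the trehalase genes, tre-4 rose (0.65 ± 0.15, adjusted p = 0.00587) and tre-3 fell (-1.05 ± 0.17, adjusted p = 0.000385). pck-1 (WBGene00021043, chromosome III, 62888 to 66260, minus strand), the entry enzyme of gluconeogenesis, measured 62, 83.7 and 80.2 CPM in N2 and 144, 136 and 137 CPM in daf-2 (0.88 ± 0.14, adjusted p = 0.000227). icl-1 (WBGene00001564, chromosome V, 724332 to 728004, minus strand), which encodes both glyoxylate enzymes and is listed as a class I target, went down, at 4426, 5893 and 7487 CPM in N2 and 2680.2, 3322 and 2394 CPM in daf-2 (-1.08 ± 0.23, adjusted p = 0.00248). The glycogen phosphorylase gene pygl-1 fell as well (-0.69 ± 0.16, adjusted p = 0.00634). In all, 5 of these 19 genes were higher and 3 lower.

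Of 19 glycolysis genes, 7 were higher and 2 lower (median 0.28), and their summed level was 3470 to 3550 CPM in N2 and 4340 to 4600 CPM in daf-2. The higher count was 3 without N2 replicate 1, 4 without N2 replicate 3, 3 without daf-2 replicate 2 and 3 without daf-2 replicate 3, and the lower count 1 without N2 replicate 1, 1 without N2 replicate 2, 1 without daf-2 replicate 1, 1 without daf-2 replicate 2 and 1 without daf-2 replicate 3. tpi-1, triosephosphate isomerase, measured 37.4, 34.5 and 41.4 CPM in N2 and 60.8, 63.8 and 67.4 CPM in daf-2 (0.76 ± 0.15, adjusted p = 0.00139). The glyceraldehyde 3-phosphate dehydrogenase genes gpd-2 (0.51 ± 0.12, adjusted p = 0.00621) and gpd-3 (0.53 ± 0.12, adjusted p = 0.00381) rose, and gpi-1, glucose 6-phosphate isomerase, fell (-0.47 ± 0.12, adjusted p = 0.0112). The enolase gene enol-1 (0.19 ± 0.13) and the lactate dehydrogenase gene ldh-1 (-0.06 ± 0.13) were not called.

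Lipid breakdown genes were split, 8 higher and 7 lower of 34. The lysosomal lipase genes diverged. lipl-4 (WBGene00019376, chromosome V, 6550171 to 6552186, plus strand) measured 20.4, 11.8 and 15.8 CPM in N2 and 96.8, 103 and 102 CPM in daf-2 (2.65 ± 0.18, adjusted p = 4.77e-08). lipl-5 (WBGene00022642, chromosome V, 385746 to 387740, plus strand) measured 118.7, 78.6 and 28.8 CPM in N2 and 2.000, 1.85 and 2.11 CPM in daf-2 (-5.23 ± 0.75, adjusted p = 0.00108), so the same family held a gene far above and a gene far below N2 in every daf-2 library. lipl-1 (-3.9 ± 0.59, adjusted p = 0.00119) and lipl-8 (-3.88 ± 0.61, adjusted p = 0.000266) fell. lbp-8, a lipid chaperone known to act with LIPL-4, measured 2.03, 1.44 and 2.11 CPM in N2 and 7.11, 7.09 and 10.7 CPM in daf-2 and rose (2.17 ± 0.30, adjusted p = 8.22e-05). The fat-droplet lipase gene atgl-1 rose (0.86 ± 0.14, adjusted p = 0.000359), as did hacd-1 (1.51 ± 0.24, adjusted p = 0.000275) and the propionate shunt gene acdh-1 (1.5 ± 0.26, adjusted p = 0.0005). acs-2, which activates fatty acids for mitochondrial oxidation, fell (-0.91 ± 0.16, adjusted p = 0.000589), together with the peroxisomal oxidase acox-1.1 (-1.14 ± 0.20, adjusted p = 0.000703) and ech-1.1 (-2.18 ± 0.31, adjusted p = 0.000101).

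Of 23 fat synthesis genes, 4 were higher and 2 lower, and the higher count was 2 without N2 replicate 1, 2 without N2 replicate 3, 2 without daf-2 replicate 1 and 2 without daf-2 replicate 3. The stearoyl-CoA desaturase genes diverged. fat-6 (WBGene00001398, chromosome IV, 11913692 to 11915687, minus strand) measured 123, 141 and 156 CPM in N2 and 302, 291 and 292 CPM in daf-2 (1.07 ± 0.14, adjusted p = 4.35e-05). fat-7 (WBGene00001399, chromosome V, 7151353 to 7153146, minus strand) measured 3.002, 4.13 and 5.75 CPM in N2 and 1.18, 1.13 and 1.02 CPM in daf-2 (-1.95 ± 0.47, adjusted p = 0.00681), lower in all daf-2 libraries. The branched-chain elongases also diverged, with elo-6 up (1.22 ± 0.15, adjusted p = 3.04e-05) and elo-5 down (-0.91 ± 0.22, adjusted p = 0.00747). The fatty acid synthase gene fasn-1 (0.07 ± 0.21) and the acetyl-CoA carboxylase gene pod-2 (-0.20 ± 0.21) were not called.

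Intestinal genes were lower in 15 of 28 (median -1.05) and 0 were higher (1 at an unadjusted p under 0.05, 1 by DESeq2 and 1 by limma-voom, with 1 without daf-2 replicate 2). Their summed level was 7360 to 9410 CPM in N2 and 1980 to 2190 CPM in daf-2. The largest falls were in digestive proteases. cpr-5 (WBGene00000785, chromosome V, 1132598 to 1134036, minus strand), a cathepsin B-like protease gene, measured 1478, 1202 and 1607 CPM in N2 and 64.9, 63.6 and 54.3 CPM in daf-2 (-4.55 ± 0.29, adjusted p = 3.28e-08). cpr-1 (WBGene00000781, chromosome V, 11975551 to 11976756, plus strand) measured 2477, 1611 and 1248 CPM in N2 and 77.7, 69 and 72.6 CPM in daf-2 (-4.6 ± 0.63, adjusted p = 0.000633), and cpr-4 fell as well (-2.78 ± 0.31, adjusted p = 2.15e-05). asp-1, an aspartic protease gene, fell from 407, 361 and 248 CPM to 25.1, 17.9 and 19.7 CPM (-4.02 ± 0.46, adjusted p = 0.000129). No daf-2 library of these genes reached the lowest N2 library. The aspartic protease genes did not all fall, since asp-9 (3.7 ± 0.35, adjusted p = 1.63e-06) and asp-4 (0.62 ± 0.15, adjusted p = 0.0072) rose. Genes of the brush border fell too, with act-5, the actin of microvilli, at -2.78 ± 0.18, and the intermediate filament genes ifb-2 at -2.77 ± 0.22, ifd-2 at -2.75 ± 0.26, ifp-1 at -2.6 ± 0.48 and ifc-2 at -1.02 ± 0.20. The peptide transporter pept-1 (-2.04 ± 0.30, adjusted p = 0.000187) and its partner exchanger nhx-2 (-1.48 ± 0.32, adjusted p = 0.0036) fell. The GATA factors that set intestinal identity had 11.3, 9.24 and 11.1 CPM in N2 and 8.75, 11.1 and 11.3 CPM in daf-2 for elt-2 (-0.03 ± 0.20) and 93.2, 78.7 and 98.2 CPM in N2 and 79.5, 82.1 and 75.9 CPM in daf-2 for elt-7 (-0.19 ± 0.16), and neither was called. The esterase marker ges-1 (0.71 ± 0.26) was not called either, and was called higher without daf-2 replicate 2.

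Of 47 immunity genes, 24 were lower and 3 higher (median -1.05). The higher count was 1 without N2 replicate 2. The p38 kinase cassette fell at several steps. pmk-1 (WBGene00004055, chromosome IV, 8148794 to 8151266, plus strand), the p38 kinase gene, measured 48.4, 39.1 and 50.6 CPM in N2 and 23.2, 16.43 and 19.8 CPM in daf-2 (-1.21 ± 0.17, adjusted p = 7.68e-05). Its upstream kinase sek-1 (-0.67 ± 0.14, adjusted p = 0.00346) and the adaptor tir-1 (-0.96 ± 0.17, adjusted p = 0.000594) fell by less, and nsy-1 (0.33 ± 0.22) and the factor atf-7 (0.14 ± 0.11) were not called. Many lysozyme genes fell, with lys-3 at -5.7 ± 0.27, lys-10 at -5.41 ± 1.01, ilys-2 at -4.17 ± 0.24, ilys-3 at -2.38 ± 0.44, lys-5 at -2.31 ± 0.44 and lys-6 at -2.19 ± 0.31. lys-1 (-0.09 ± 0.21), lys-2 (-0.42 ± 0.48) and lys-7 (0.10 ± 0.22) were not called. abf-2 (WBGene00000013, chromosome I, 3885631 to 3885888, minus strand), an antibacterial peptide gene, went up instead, at 39.6, 27.8 and 41.7 CPM in N2 and 296, 105 and 216 CPM in daf-2 (2.5 ± 0.39, adjusted p = 0.000911). Saposin-like genes (spp) had 8 higher and 9 lower of 28, the lower count being 5 without daf-2 replicate 3. spp-29 (5.4 ± 0.79) and spp-11 (3.68 ± 0.64) rose and spp-18 (-3.5 ± 0.53) and spp-8 (-2.05 ± 0.31) fell. C-type lectin genes (clec) were lower in 39 and higher in 10 of 158 (median -0.56), with the lower count 25 without daf-2 replicate 1. In the pals family, linked to intracellular infection, 12 were lower and 2 higher of 35. The counts of pals genes were 6 without N2 replicate 3 and 6 without daf-2 replicate 3 for lower and 0 without N2 replicate 1 and 1 without daf-2 replicate 2 for higher. Intestinal markers moved with these immunity genes (summed levels above), and their part in the result was not tested.

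Reproductive genes split by stage. Oocyte and eggshell genes were lower in 19 and higher in 3 of 34 (median -0.51), and their summed level was 36300 to 39200 CPM in N2 and 20300 to 24500 CPM in daf-2. The higher count was 1 without N2 replicate 1, 1 without N2 replicate 3 and 1 without daf-2 replicate 2. cbd-1 (WBGene00010351, chromosome IV, 11372991 to 11377627, plus strand), a chitin-binding protein of the eggshell, measured 1589, 2256 and 1499.8 CPM in N2 and 889.6, 906 and 719 CPM in daf-2 (-1.09 ± 0.18, adjusted p = 0.000447). cpg-1 (WBGene00000465, chromosome III, 4489359 to 4491392, plus strand), an eggshell proteoglycan gene, measured 1153, 1263 and 900.5 CPM in N2 and 553, 534 and 509 CPM in daf-2 (-1.06 ± 0.16, adjusted p = 0.000166). Both were below every N2 library in all daf-2 libraries. The genes egg-1 (-0.73 ± 0.15, adjusted p = 0.00202), egg-4 (-0.83 ± 0.16, adjusted p = 0.00158) and egg-5 (-0.87 ± 0.20, adjusted p = 0.00448) fell. Maternal RNA regulators fell too, with puf-5 at -1.63 ± 0.16, puf-11 at -1.19 ± 0.17, pos-1 at -0.86 ± 0.13, mex-6 at -0.89 ± 0.14 and spn-4 at -0.73 ± 0.14. The germ granule gene pgl-1 (WBGene00003992, chromosome IV, 6974441 to 6977318, minus strand) rose, at 52.6, 54.8 and 44.8 CPM in N2 and 85.1, 106 and 90.6 CPM in daf-2 (0.89 ± 0.14, adjusted p = 0.000195). The germline stem cell receptor glp-1 (0.07 ± 0.17) and the helicase glh-1 (0.25 ± 0.16) were not called.

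DNA replication and division genes were lower in 11 of 30 (median -0.21) and 0 were higher (2 at an unadjusted p under 0.05, 0 by DESeq2 and 2 by limma-voom, and 2 without N2 replicate 2). cyb-2.1 (WBGene00000866, chromosome IV, 10985985 to 10987426, plus strand), a cyclin B gene, measured 127, 129 and 103 CPM in N2 and 57.8, 54.7 and 53.5 CPM in daf-2 (-1.11 ± 0.13, adjusted p = 1.46e-05). Its near copy cyb-2.2 (-0.99 ± 0.13, adjusted p = 5.39e-05), the centriole gene sas-5 (-0.73 ± 0.13, adjusted p = 0.00057), the Aurora kinase air-1 (-0.66 ± 0.13, adjusted p = 0.00177), cyclin E cye-1 (-0.69 ± 0.15, adjusted p = 0.0041) and the sliding clamp pcn-1 (-0.55 ± 0.14, adjusted p = 0.00856) fell. Of the replicative helicase genes, mcm-7 fell (-0.61 ± 0.15, adjusted p = 0.0083) and mcm-2, mcm-3, mcm-4, mcm-5 and mcm-6 were not called, except mcm-2 as lower without N2 replicate 3. In meiosis, 5 of 22 genes were higher and 1 lower (median 0.24). The higher count was 8 without N2 replicate 2 and the lower count 0 without N2 replicate 1, 0 without N2 replicate 3, 0 without daf-2 replicate 2 and 0 without daf-2 replicate 3. htp-1 (WBGene00002032, chromosome IV, 5390189 to 5391557, minus strand), a chromosome axis gene, measured 13, 13.6 and 13.8 CPM in N2 and 21.1, 24.9 and 26 CPM in daf-2 (0.83 ± 0.16, adjusted p = 0.00142). The daf-2 libraries were all higher, also for htp-3 (0.73 ± 0.14, adjusted p = 0.00122), the recombinase rad-51 (0.74 ± 0.14, adjusted p = 0.00101) and him-8 (0.80 ± 0.15, adjusted p = 0.00132), which pairs the X chromosomes.

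Sperm genes had few calls, 1 higher and 2 lower of 36, the lower count being 1 without N2 replicate 2. The major sperm protein family (msp) had 0 calls by edgeR among 25 (0 at an unadjusted p under 0.05, 0 by DESeq2 and 0 by limma-voom for higher, and 0 at an unadjusted p under 0.05, 0 by DESeq2 and 0 by limma-voom for lower). Major sperm proteins held 0.00313% ± 0.00134 of counts in N2 and 0.00445% ± 0.00118 in daf-2 (SD, n = 3 each, exact permutation p = 0.3, two-sided), a share near 0 in both groups. Genes first read in the embryo rose in 3 of 22 (13.6%), near the 9.58% of all tested genes, with 1 without N2 replicate 3 and 1 without daf-2 replicate 1. Of these embryo genes 0 fell (0 at an unadjusted p under 0.05, 0 by DESeq2 and 0 by limma-voom). pes-10 measured 0.0375, 0 and 0.068 CPM in N2 and 1.61, 0.886 and 0.859 CPM in daf-2 (4.86 ± 0.95, adjusted p = 0.00163).

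Yolk protein genes took 4.04%, 5.74% and 5.96% of counts in N2 and 2.32%, 3.77% and 2.61% in daf-2. The groups did not overlap, with means of 5.25% ± 1.05 and 2.9% ± 0.766 (SD, n = 3 each), and the exact permutation p of 0.1, two-sided, is the smallest that 3 against 3 allows. vit-5 (WBGene00006929, chromosome X, 3403471 to 3408603, plus strand) had the largest loss in CPM of all called genes, at 23300.00, 30475 and 37048 CPM in N2 and 8857, 13365 and 8808 CPM in daf-2 (-1.55 ± 0.35, adjusted p = 0.00606). vit-2 (-0.93 ± 0.35) and vit-6 (-0.39 ± 0.34) were not called. vit-2 was called lower in a fit of the 6 libraries alone (adjusted p = 0.00931), without a filter on low counts (0.000249), by limma-voom (0.0489) and with the replicate number as a block (0.0269). rme-2, the receptor that takes yolk into oocytes, fell from 1230.04, 1454 and 1269 CPM to 482, 516 and 457 CPM (-1.44 ± 0.15, adjusted p = 3.13e-06). Of the 7 yolk protein and receptor genes tested, only vit-5 and rme-2 were called lower, and 4 were in the fit of the 6 libraries alone. 0 were higher (0 at an unadjusted p under 0.05, 0 by DESeq2 and 0 by limma-voom). The median of the list was -0.931 here and 0.918 in the triple against the double mutant.

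Uterine lumen genes (ule) are expressed in the uterus and rise with age. ule-5 (WBGene00013394, chromosome X, 11883127 to 11884042, plus strand) measured 14904, 12372 and 13804 CPM in N2 and 2326, 1093 and 650.05 CPM in daf-2. The groups were far apart, yet the gene was not called (-3.34 ± 1.3, adjusted p = 0.112), and neither was ule-3, at 12082, 11608 and 11722 CPM in N2 and 4685, 2673 and 1596 CPM in daf-2 (-1.98 ± 1.14, adjusted p = 0.274). In a fit of the 6 libraries alone, with the filter applied to them (16912 genes tested), the adjusted p was 3.78e-05 for ule-5 and 0.000465 for ule-3. Without a filter and with all 12 libraries both were called too (8.27e-47 and 4.65e-18), and limma-voom called ule-5 (0.0308). ule-2 was called (-1.09 ± 0.27, adjusted p = 0.00945).

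The nspc genes, a nematode-specific family of short secreted peptides, had the highest share of calls of any family of 15 or more tested genes. 14 of 18 were lower (77.8%, median -2.81) and 0 were higher (0 at an unadjusted p under 0.05, 0 by DESeq2 and 0 by limma-voom). nspc-20 (WBGene00008356, chromosome X, 14529788 to 14530207, minus strand) measured 115, 60.1 and 85.4 CPM in N2 and 7.68, 5.15 and 3.17 CPM in daf-2 (-4.04 ± 0.47, adjusted p = 0.000101). nspc-16 (WBGene00008357, chromosome X, 14523575 to 14524021, plus strand) measured 22.5, 14.1 and 11.6 CPM in N2 and 0.179, 0.0805 and 0.164 CPM in daf-2 (-6.67 ± 0.70, adjusted p = 5.86e-06), with every daf-2 library near 0. Members sit in neighbouring runs of lower genes on chromosome X, nspc-12 to nspc-15 in one (the call of nspc-12 was lost without N2 replicate 1) and nspc-16 to nspc-20 in the other. The second run also holds D1025.1, and 4 of its 6 calls were kept without N2 replicate 3 or daf-2 replicate 1. A call among nspc-16 to nspc-20 was thus lost in those fits.

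**Figure D4:**
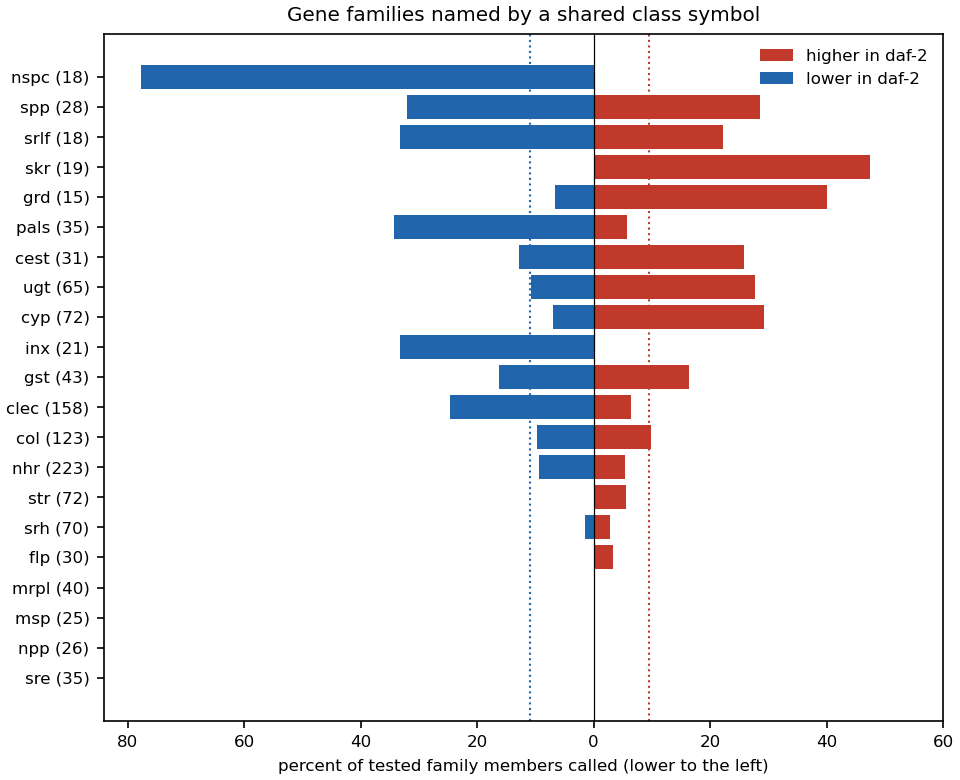
Share of tested members called higher (to the right) and lower (to the left) in daf-2 (horizontal axis, percent) for selected gene families of 15 or more tested genes (vertical axis, number tested in brackets), with dotted lines at the shares over all tested genes. The nspc family is lower in 77.8% of its members, and skr, cyp and ugt have more higher than lower members.

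Among other families, the skr genes, which encode Skp1-related parts of ubiquitin ligases, were higher in 9 of 19 (median 0.81) and 0 were lower (0 at an unadjusted p under 0.05, 0 by DESeq2 and 1 by limma-voom). skr-5 (WBGene00004811, chromosome V, 17347902 to 17348723, plus strand) measured 27.9, 20.5 and 28.1 CPM in N2 and 90.3, 58.7 and 86.2 CPM in daf-2 (1.62 ± 0.19, adjusted p = 1.76e-05). skr-12 also rose (1.91 ± 0.35, adjusted p = 0.00102). The grd genes, related to hedgehog proteins, were higher in 6 and lower in 1 of 15, the lower count being 2 without daf-2 replicate 1. grd-3 (WBGene00001692, chromosome IV, 3439655 to 3440453, plus strand) measured 1.24, 0.393 and 0.986 CPM in N2 and 13.9, 9.74 and 11.19 CPM in daf-2 (3.74 ± 0.46, adjusted p = 2.2e-05). Innexin genes (inx), which encode gap junction channels, were lower in 7 of 21, 4 without daf-2 replicate 3, and 0 were higher (1 at an unadjusted p under 0.05, 0 by DESeq2 and 0 by limma-voom). inx-14 (WBGene00002136, chromosome I, 7350309 to 7352235, minus strand), which couples germ cells to the gonad sheath, measured 436, 415 and 396 CPM in N2 and 201, 203 and 204 CPM in daf-2 (-1.03 ± 0.13, adjusted p = 3.67e-05), and the libraries of each group were close to each other. inx-7 (-0.99 ± 0.14, adjusted p = 7.84e-05) and inx-16 (-2.51 ± 0.52, adjusted p = 0.00229) fell too. Cuticle collagens of the col family were 12 higher and 12 lower of 123. Their share of total counts, without TMM scaling, was 1.71% ± 0.123 in N2 and 2.42% ± 0.183 in daf-2 (SD, n = 3 each, exact permutation p = 0.1, the smallest possible). Nuclear hormone receptor genes (nhr) had 12 higher and 21 lower of 223, with 7 without N2 replicate 1 and 7 without daf-2 replicate 2 for higher and 12 without N2 replicate 3, 12 without daf-2 replicate 1 and 13 without daf-2 replicate 3 for lower. The 13 chemoreceptor families of 15 or more tested genes had 26 higher and 12 lower of 463 genes (8.21% called, against 20.6% of all tested genes), with 15 higher without N2 replicate 2, 16 without daf-2 replicate 2 and 17 without daf-2 replicate 3, and 6 lower without daf-2 replicate 2 and 6 without daf-2 replicate 3. They ranged from srw, with 6 higher and 2 lower of 37 (21.6%), to sre, srt and sra with 0 of 35, 31 and 19 by edgeR. The srw counts were 3 without N2 replicate 1, 3 without N2 replicate 3, 3 without daf-2 replicate 1 and 2 without daf-2 replicate 2 for higher and 1 without N2 replicate 1, 1 without N2 replicate 2, 1 without N2 replicate 3, 1 without daf-2 replicate 1, 1 without daf-2 replicate 2 and 0 without daf-2 replicate 3 for lower. Of sre genes, 2 at an unadjusted p under 0.05, 0 by DESeq2 and 1 by limma-voom were higher (1 without N2 replicate 1 and 1 without N2 replicate 3), and 2 at an unadjusted p under 0.05, 2 by DESeq2 and 1 by limma-voom lower. Of srt genes, 3 at an unadjusted p under 0.05, 1 by DESeq2 and 3 by limma-voom were higher (3 without N2 replicate 3), and 0 at an unadjusted p under 0.05, 0 by DESeq2 and 0 by limma-voom lower. Of sra genes, 2 at an unadjusted p under 0.05, 2 by DESeq2 and 0 by limma-voom were higher (1 without N2 replicate 1), and 0 at an unadjusted p under 0.05, 0 by DESeq2 and 0 by limma-voom lower.

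Basement membrane genes did not move together. Of 18, 4 were higher and 2 lower, the lower count being 1 without N2 replicate 2, 1 without N2 replicate 3, 1 without daf-2 replicate 1 and 1 without daf-2 replicate 3. lam-1 (WBGene00002247, chromosome IV, 5173332 to 5183746, plus strand), the laminin beta chain, measured 32.2, 27.3 and 19.7 CPM in N2 and 84.5, 107 and 67.2 CPM in daf-2 (1.7 ± 0.27, adjusted p = 0.000338). The laminin alpha gene epi-1 (1.25 ± 0.23, adjusted p = 0.000941) and nidogen nid-1 (0.66 ± 0.17, adjusted p = 0.00909) rose with it, and ost-1, the SPARC protein, fell (-0.57 ± 0.13, adjusted p = 0.00657). The type IV collagen gene emb-9 (-0.24 ± 0.16) was not called.

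Muscle genes had a median of 0.03, with 6 of 39 higher and 4 lower. The higher count was 2 without N2 replicate 2, 3 without N2 replicate 3 and 3 without daf-2 replicate 3, and the lower count 1 without N2 replicate 3, 1 without daf-2 replicate 1 and 2 without daf-2 replicate 3. myo-3 (WBGene00003515, chromosome V, 12226817 to 12234343, minus strand), a body wall myosin heavy chain gene, measured 18.4, 33.2 and 30.6 CPM in N2 and 59.4, 68.7 and 53.7 CPM in daf-2 (1.14 ± 0.21, adjusted p = 0.000948), and unc-87 rose (0.67 ± 0.13, adjusted p = 0.00171). tni-4, a pharyngeal troponin I gene, fell (-0.81 ± 0.19, adjusted p = 0.00524). Summed levels of the muscle list were 10700 to 11500 CPM in N2 and 9050 to 10500 CPM in daf-2. Neuronal markers summed to 790 to 821 CPM and 719 to 776 CPM, with 2 of 24 higher and 2 lower. The neuronal counts were 1 without N2 replicate 1, 1 without N2 replicate 3, 1 without daf-2 replicate 1 and 1 without daf-2 replicate 2 for higher and 1 without N2 replicate 1, 1 without N2 replicate 2, 1 without daf-2 replicate 1 and 1 without daf-2 replicate 3 for lower. snt-1, synaptotagmin of synaptic vesicles, measured 8.86, 7.8 and 7.99 CPM in N2 and 18.8, 18.8 and 16.53 CPM in daf-2 (1.13 ± 0.22, adjusted p = 0.00165), and unc-33 fell (-0.75 ± 0.18, adjusted p = 0.00589). Among 29 genes of neural excitation and the REST-like repressors, 1 was higher and 3 lower. Those counts were 3 without N2 replicate 2 and 0 without daf-2 replicate 2 for higher and 1 without daf-2 replicate 2 and 1 without daf-2 replicate 3 for lower. unc-79, part of the NALCN sodium leak channel, fell (-1.47 ± 0.27, adjusted p = 0.00104). spr-3 (0.05 ± 0.13) and spr-4 (-0.22 ± 0.21) were not called. Epidermis and cuticle shape genes were 4 higher and 3 lower of 30, the higher count being 2 without daf-2 replicate 3. dpy-17 rose (1.49 ± 0.15, adjusted p = 2.53e-06), and dpy-8 (-1.78 ± 0.33, adjusted p = 0.00104) and the fibrillin-like fbn-1 (-0.76 ± 0.15, adjusted p = 0.00193) fell.

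Genes of ribosome assembly leaned higher, 9 of 23 (median 0.40), with 3 without N2 replicate 1, 4 without N2 replicate 3, 5 without daf-2 replicate 2 and 5 without daf-2 replicate 3, and 0 were lower (0 at an unadjusted p under 0.05, 0 by DESeq2 and 0 by limma-voom). rpoa-2 (WBGene00008781, chromosome I, 9280923 to 9286576, minus strand), a subunit of RNA polymerase I, measured 27, 30.8 and 30.4 CPM in N2 and 50.6, 48.6 and 49.9 CPM in daf-2 (0.76 ± 0.17, adjusted p = 0.00515). The nucleolar gene nol-14 rose as well (0.71 ± 0.17, adjusted p = 0.00676). Ribosomal protein genes held 3.25% ± 0.264 of total counts in N2 and 4.15% ± 0.504 in daf-2, without TMM scaling (SD, n = 3 each, exact permutation p = 0.1, the smallest possible). N2 replicate 1 had a share of 3.55% and a TMM factor of 0.889, and daf-2 replicate 2 had 3.6% and 1.045. After TMM scaling daf-2 replicate 2 therefore lay below N2 replicate 1, and the groups overlapped. The rpl family had 2 higher of 47 and the rps family 4 of 31. The rpl count was 1 without N2 replicate 2, 0 without N2 replicate 3, 0 without daf-2 replicate 1 and 0 without daf-2 replicate 3, and the rps count 2 without N2 replicate 1, 2 without N2 replicate 2, 1 without N2 replicate 3, 1 without daf-2 replicate 1 and 1 without daf-2 replicate 3. Translation factors were 7 higher and 2 lower of 29. The higher count was 4 without N2 replicate 1, 3 without N2 replicate 3, 3 without daf-2 replicate 1, 4 without daf-2 replicate 2 and 3 without daf-2 replicate 3, and the lower count 1 without N2 replicate 1, 1 without N2 replicate 3, 1 without daf-2 replicate 2 and 1 without daf-2 replicate 3. Of the cap-binding eIF4E genes, ife-5 (WBGene00002063, chromosome II, 12280660 to 12284139, plus strand) measured 10.6, 10 and 16 CPM in N2 and 34.9, 51.9 and 48.3 CPM in daf-2 and rose (1.88 ± 0.20, adjusted p = 4.08e-06), ife-1 rose (0.58 ± 0.12, adjusted p = 0.00241) and ife-3 fell (-0.54 ± 0.12, adjusted p = 0.00528). The mitochondrial genome gave 0.819% ± 0.0856 of total counts in N2 and 1.32% ± 0.181 in daf-2, also without TMM scaling (exact permutation p = 0.1, the smallest possible). Of its 16 tested genes 5 were higher, among them ND6 (0.94 ± 0.18) and COX3 (0.67 ± 0.14). Nuclear genes of the respiratory chain were 3 higher and 1 lower of 44. The higher count of the nuclear genes was 0 without N2 replicate 1, 1 without N2 replicate 3, 0 without daf-2 replicate 1, 1 without daf-2 replicate 2 and 0 without daf-2 replicate 3. The call of ucr-2.1, a complex III gene, was the lower one (-0.58 ± 0.15, adjusted p = 0.0106). Proteasome genes were lower in 5 of 33 (15.2%, near the 11% of all tested genes), a count that was 0 without N2 replicate 1, 2 without N2 replicate 2, 2 without N2 replicate 3, 1 without daf-2 replicate 2 and 1 without daf-2 replicate 3. Autophagy genes were 2 higher and 2 lower of 26, with 1 without N2 replicate 1, 1 without N2 replicate 3, 1 without daf-2 replicate 1, 1 without daf-2 replicate 2 and 1 without daf-2 replicate 3 for higher and 1 without daf-2 replicate 3 for lower. epg-2, needed to clear germ granule proteins, rose (1.07 ± 0.21, adjusted p = 0.0014).

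Calls were spread over the genome. The share of tested genes called was 19% on chromosome I, 20.1% on II, 19.4% on III, 21.5% on IV, 22.6% on V and 20.5% on X. On X 185 genes were higher and 332 lower, and its median log2 fold change of -0.0612 was the only negative one among the chromosomes. The nspc genes, all lower where called, lie in part on X, and their part in the X value was not tested. Protein-coding genes were called in 21.6% and pseudogenes in 10.8%. Among RNA genes the share was 19.1% for piRNA loci, 13.2% for lincRNA genes, 6.73% for other ncRNA genes and 1.79% for snoRNA genes. Of the 12 higher piRNA loci 7 lay in a single stretch of 3.45 kb, and of the 9 lower ones 7 lay in a stretch of 1.77 kb. By level the share called went from 3.13% in the lowest class of genes to 35.5% in the highest. By exon length the longest class of genes (from 2114 bases) had more higher than lower calls, 470 against 363, and the other classes fewer.

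Runs of 4 or more neighbouring tested genes called in 1 direction numbered 10 for higher genes, holding 47 genes, and 15 for lower genes, holding 70. The longest of each direction were loci of piRNAs (21ur genes) on chromosome IV, 7 genes at 16173162 to 16176609 higher and 7 genes at 5924799 to 5926564 lower. Those loci are short and close together. Of the 7 higher calls, 3 were lost whichever of the 6 libraries was left out, and 4 of the 7 lower calls were kept without daf-2 replicate 3. Among genes other than piRNA loci, the longest higher run had 6 genes on chromosome V at 7521900 to 7531494, from C54F6.15 to the sugar transporter gene swt-2 (median 2.78). A run of 5 higher genes on IV at 17162097 to 17189805 held skr-13, skr-9, skr-8, skr-12 and C52D10.3 (median 1.62). In that run the call of skr-13 was lost without N2 replicate 2 or 3 or daf-2 replicate 2, that of skr-8 without N2 replicate 3 or daf-2 replicate 3, and that of skr-9 without N2 replicate 2 or 3 or any daf-2 replicate. Among lower runs, 6 genes on V at 4034476 to 4047433 held irg-2, phat-3 and phat-7 (median -1.35), and 6 genes on X at 14520763 to 14530207 held D1025.1 and nspc-16 to nspc-20 (median -3.86). The call of D1025.1 was lost without N2 replicate 2 or 3 or any daf-2 replicate. Only 4 of the 6 calls of that run on X were kept without N2 replicate 3 or daf-2 replicate 1, so a call among its nspc genes was lost too.

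The same daf-2 contrast in worms without spr-4 and spr-3, the triple against the double mutant, shares no library with daf-2 against N2. It called 2739 genes (14.9%), 1287 higher and 1452 lower. Of the 1757 genes higher in daf-2, 519 (29.5%) were also called higher there and 26 lower, with a median log2 fold change of 0.372. Of the 2015 lower genes, 611 (30.3%) were also called lower there and 82 higher, with a median of -0.329. The shared genes were 40.3% of the higher and 42.1% of the lower calls in that background. Differences between the backgrounds were called by the interaction for 1526 genes (8.32%). Genes whose fall or rise was near in both include lipl-5 (-5.23 here and -5.67 ± 0.79 there), alh-2 (5.59 and 5.96 ± 0.43), grd-3 (3.74 and 3.67 ± 0.45) and nhx-6 (-5.56 and -6.63 ± 0.98). Others had little change in the second background, such as lec-2 (-0.04 ± 0.27), clec-87 (0.04 ± 0.19), inx-14 (0.13 ± 0.13) and icl-1 (0.24 ± 0.22). E02H9.7, with 17.1, 11.24 and 13.1 CPM in N2 and 1.96, 0.966 and 0.532 CPM in daf-2, fell here (-3.59 ± 0.78, adjusted p = 0.0061) and had 1.86 ± 0.72 there.

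**Figure D5:**
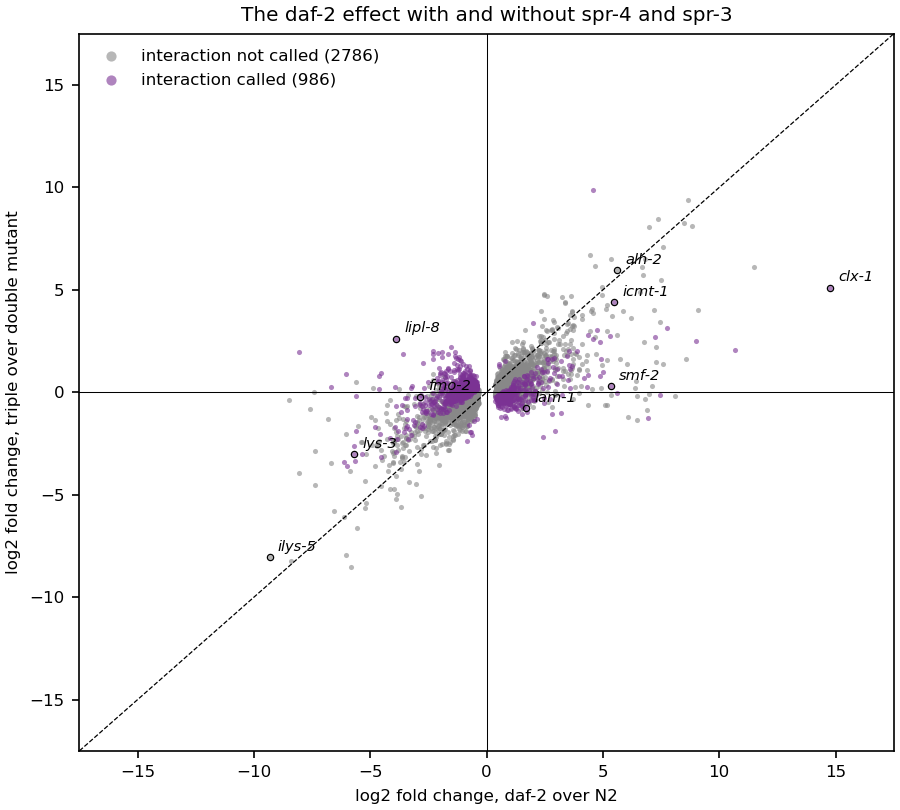
Log2 fold change of the triple against the double mutant (vertical axis) plotted against that of daf-2 against N2 (horizontal axis), 1 point a gene called in daf-2 against N2, purple where the interaction was called and grey where not, with equal change on the dashed line. Of the genes called in both, 519 were higher and 611 lower in both, and some genes that changed in daf-2 against N2 lie near 0 on the vertical axis.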

How the data were processed

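Whole-body RNA of C. elegans at day 10 was reverse transcribed with SMART-Seq v4 from 2 ng of RNA and sequenced as paired reads, per the labels' protocols. The authors deposited raw counts per gene, made with STAR and featureCounts 1.5.1 on the build WBcel235, per the submitters' processing notes. The annotation release, the strand setting and the treatment of reads that match several genes were not given in the sources used here.

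All 12 libraries were fitted together with edgeR 4.0.16 in R 4.3.3 (filterByExpr, TMM, robust quasi-likelihood F-test, a mean per genotype, contrast daf-2 minus N2, Benjamini-Hochberg over 18342 genes, threshold 0.05). SE was the log2 fold change divided by the root of F. Shares of total counts, without TMM scaling, were compared by an exact two-sided permutation test. DESeq2 1.42.0, limma 3.58.1 (voom with quality weights), other filters and scaling, a replicate block, the last digit of the library name and leaving out each library were alternatives. Floors are 3 counts and cover counting error only. Gene names and coordinates came from the Ensembl annotation of WBcel235 and matched 43720 of the 46739 gene IDs by name.

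Named genes were the 10 largest rises and falls with a class symbol and 3 with only a sequence name (mean of at least 5 CPM, no overlap), the 6 largest gains and losses in CPM, genes at 0 in a group, the largest interactions, members of the gene lists picked by role after their values were seen, and up to 3 members each way of families of 15 or more genes. These rules, the lists and the comparison itself were chosen with earlier results of these data known. The fit was tested on simulated data.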

Additional observations from a re-analysis of the deposited data

Results flagged for a closer look

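For some genes named above, the daf-2 effect differed between the backgrounds with and without spr-4 and spr-3, by the interaction of edgeR's quasi-likelihood test (adjusted p below 0.05). Each value is the log2 fold change of the triple over the double mutant minus that of daf-2 over N2, so a positive value beside a fall means a smaller fall, or a rise, in the second background. The genes were named for their values in daf-2 against N2, whose libraries enter the interaction too, so a smaller change in the second background was favoured by the choice.

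Among the genes with the largest changes, the difference was called for C06H5.11 (-8.61 ± 1.74), clx-1 (-9.64 ± 2.26), scl-11 (-6.52 ± 1.89), dao-6 (-2.43 ± 0.41), col-50 (-1.73 ± 0.38), dlhd-1 (-1.57 ± 0.30), icmt-1 (-1.08 ± 0.29), sams-5 (-1.89 ± 0.53), K10D11.5 (2.36 ± 0.47), Y46H3A.5 (2.72 ± 0.36), ZK896.4 (3.07 ± 0.51), E02H9.7 (5.45 ± 1.06), lys-3 (2.68 ± 0.32), lec-2 (1.98 ± 0.38), clec-87 (1.21 ± 0.26) and icl-1 (1.33 ± 0.32). In insulin signalling and its peptides, the difference was called for ist-1 (-1.85 ± 0.36), akt-2 (-1.01 ± 0.18), pdk-1 (-1.04 ± 0.23), shc-1 (1.12 ± 0.24), ins-23 (-1.29 ± 0.30), ins-3 (2.13 ± 0.37), ins-4 (2.19 ± 0.41), ins-5 (2.58 ± 0.43), hif-1 (-0.86 ± 0.17) and pqm-1 (-0.85 ± 0.24). In stress defence and detoxification, the difference was called for gpx-2 (-1.16 ± 0.30), hsp-12.6 (-1.39 ± 0.33), hsp-16.1 (1.92 ± 0.40), hsp-16.41 (2.39 ± 0.63), hsp-60 (-0.84 ± 0.20), gst-3 (-1.01 ± 0.30), gst-7 (1.19 ± 0.22), gst-38 (1.27 ± 0.30), cyp-13A11 (-3.29 ± 0.76), cyp-34A9 (-0.97 ± 0.25), ugt-1 (-1.15 ± 0.23), ugt-5 (-1.12 ± 0.19), cest-1.1 (-0.95 ± 0.26), cdr-2 (-1.7 ± 0.37) and smf-2 (-5.04 ± 1.4). In sugar and fat metabolism, the difference was called for pck-1 (-1.29 ± 0.19), gob-1 (-0.79 ± 0.18), tps-2 (-1.36 ± 0.30), pygl-1 (1.39 ± 0.23), tpi-1 (-1.16 ± 0.21), gpi-1 (0.73 ± 0.17), lipl-4 (-1.21 ± 0.24), lipl-8 (6.5 ± 0.87), hacd-1 (-1.74 ± 0.34), fat-6 (-1.12 ± 0.20) and elo-6 (-1.29 ± 0.21). In gut and immunity, the difference was called for act-5 (1.03 ± 0.24), cpr-4 (1.79 ± 0.41), cpr-5 (1.41 ± 0.36), ifb-2 (1.21 ± 0.29), ges-1 (-1.45 ± 0.37), ilys-2 (1.95 ± 0.32), irg-2 (0.88 ± 0.20), lys-5 (2.29 ± 0.62) and tir-1 (1.03 ± 0.24). In reproduction, the difference was called for rme-2 (1.55 ± 0.20), vit-2 (1.85 ± 0.50), ule-2 (1.33 ± 0.38), cpg-1 (0.92 ± 0.22), puf-5 (0.77 ± 0.22), pes-10 (-4.07 ± 1.2), cyb-2.1 (0.65 ± 0.18), sas-5 (0.79 ± 0.18), htp-1 (-0.87 ± 0.22), inx-7 (1.06 ± 0.19) and inx-14 (1.17 ± 0.19). In the remaining groups, the difference was called for epi-1 (-2.09 ± 0.32), lam-1 (-2.49 ± 0.37), nid-1 (-0.85 ± 0.23), epg-2 (-1.88 ± 0.29), ife-3 (0.69 ± 0.17), skr-12 (-2.28 ± 0.50), C52D10.3 (-2.18 ± 0.48), dao-3 (-1.19 ± 0.19), dur-1 (-1.52 ± 0.21), ttr-1 (1.11 ± 0.32), ttr-31 (2.24 ± 0.29) and alh-6 (-0.89 ± 0.23).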

How the results depend on the processing

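The number of genes higher in daf-2, 1757, was 2044 by DESeq2, 2357 by limma-voom and 1687 with DESeq2's size factors, and the number lower, 2015, was 2406, 2610 and 2085. Leaving out 1 library gave 1140 to 1525 higher and 1460 to 1780 lower genes, the fewest in both directions without daf-2 replicate 3. With only the 6 libraries in the fit 1981 were higher and 2284 lower. The interaction calls, 1526, were 2329 by DESeq2, 2213 without a filter and 2229 by limma-voom, and 772 to 1461 with 1 library left out. The share of calls that were higher ranged from 43.8% to 48.9%, and the median log2 fold change of all genes from 0.0265 to 0.0825, over the alternatives run. The difference in yolk share of counts, -2.35 percentage points, ranged from -2.95 to -1.99 with 1 library left out, an alternative chosen after seeing the data. Same-numbered libraries correlated at 0.064, 0.05 and 0.0543 in their deviations from the group means. Differently numbered libraries correlated at -0.0655 to 0.0118. On the second principal component, replicate 2 of each genotype lay apart from its replicates 1 and 3, on the same side. All these correlations are near 0, the same-numbered ones are the highest, and whether the replicate number pairs the samples was not tested. With the number as a replicate block 1576 genes were higher and 1841 lower, and the interaction was called for 1151. The block ended the call of cpi-1 (adjusted p = 0.0572) and gave one to vit-2 (0.0269). With the last digit of the library name as a term the interaction was called for 1135 genes, and cpi-1, gpi-1, hsp-16.41, ins-29, let-2, mcm-7, pygl-1, skr-9, skr-13 and D1025.1 lost their calls. limma-voom lost clec-18, E02H4.8 and gba-4 and gained ctl-2, ges-1, skn-1, ule-5 and vit-2. No gene named in the text changed its direction while called, under any alternative run. The cause of these differences was not tested. Promoter motifs, planned as a description, were not run. In daf-2 replicate 2, the shallowest library, 3 counts are 0.252 CPM, so absence cannot be read for genes near that level.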

Other observations

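Some groups were not described above. Genes named for the dauer stage or for late embryogenesis proteins were higher in 4 and lower in 1 of 15. dao-3 measured 30.7, 33.5 and 29.2 CPM in N2 and 62.6, 69.1 and 67.4 CPM in daf-2 and rose (log2 fold change 1.09 ± 0.14, adjusted p = 2.71e-05), as did dur-1 (1.67 ± 0.15, adjusted p = 1.16e-06), and ttr-1 fell (-1.21 ± 0.23, adjusted p = 0.00119). In the transthyretin-like family (ttr), 10 were higher and 7 lower of 53, the lower count being 3 without N2 replicate 3, 4 without daf-2 replicate 1 and 2 without daf-2 replicate 2. ttr-31 fell from 58.4, 42.4 and 70 CPM in N2 to 4.46, 2.82 and 3.62 CPM in daf-2 (-3.94 ± 0.23, adjusted p = 7.6e-09), and ttr-25 rose from 692, 503 and 717 to 1793, 1299 and 1834 CPM (1.37 ± 0.21, adjusted p = 0.000188). Neither gene had overlapping groups. Chitinase-like genes (chil) also went both ways, 4 higher and 5 lower of 24 (the lower count was 3 without N2 replicate 2, 3 without daf-2 replicate 2 and 3 without daf-2 replicate 3), with chil-8 at 1.52 ± 0.15, adjusted p = 1.84e-06 and chil-22 at -2.59 ± 0.43, adjusted p = 0.000423.

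Lysosome and proton pump genes were 3 higher and 3 lower of 31, and the lower count was 1 without N2 replicate 2, 1 without daf-2 replicate 1 and 1 without daf-2 replicate 3. Of 24 tRNA synthetase genes, 1 was lower, with 0 without N2 replicate 1, 0 without N2 replicate 2, 0 without N2 replicate 3, 0 without daf-2 replicate 2 and 0 without daf-2 replicate 3, and 0 were higher by edgeR (4 at an unadjusted p under 0.05, 0 by DESeq2 and 2 by limma-voom, and 2 without N2 replicate 2). Coelomocyte markers had 0 calls among 4 (0 at an unadjusted p under 0.05, 0 by DESeq2 and 0 by limma-voom for higher, and 1 at an unadjusted p under 0.05, 1 by DESeq2 and 2 by limma-voom for lower, with 1 without N2 replicate 1 and 1 without daf-2 replicate 2). In the SKN-1 linked list 4 were higher and 3 lower of 21, the higher count being 7 without N2 replicate 1. alh-6 measured 10.7, 13.8 and 11.8 CPM in N2 and 24.6, 21.7 and 22.1 CPM in daf-2 and rose (0.91 ± 0.16, adjusted p = 0.000826), and ugt-11 rose (0.83 ± 0.20, adjusted p = 0.00746).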
